A study of Mus musculus with 4 samples.

Results

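The genes described here are 39 genes of the unfolded protein response and the integrated stress response, out of 23444 gene symbols in each sample table. They were taken by name from a fixed list, and all 39 were found under their own symbol. The list holds 14 chaperones and folding factors of the endoplasmic reticulum (ER), 3 genes of ER-associated degradation, 4 stress sensors and transcription factors of the unfolded protein response, 7 factors of the integrated stress response and 11 amino acid genes known as targets of the transcription factor ATF4. RNA came from primary mouse oligodendrocyte precursor cells of a mixed strain background after 1 day of differentiation in T3, a thyroid hormone that drives precursors towards oligodendrocytes. Controls are 2 samples labelled lncOL1+/+, lncOL1+/- as a group, so the genotype of each is not known, and the 2 knockout samples are labelled lncOL1-/-. lncOL1 is a long noncoding RNA, and the series was made to find genes whose expression differs on its depletion. All samples were of cultured cells given T3, so no sample without T3 or with an added stressor was compared.

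Cells that make large amounts of membrane and secreted protein rely on the ER to fold it. When unfolded protein builds up, the sensors encoded by Ern1 (IRE1), Atf6 and Eif2ak3 (PERK) respond: IRE1 splices Xbp1 RNA, ATF6 is cut to release a transcription factor, and PERK phosphorylates the translation factor eIF2, which lowers translation in general and favours that of ATF4. The first arms raise chaperone and degradation genes, and ATF4 raises genes of amino acid synthesis and import, of tRNA charging and of feedback. Oligodendrocytes make a large surface of myelin membrane, and inherited defects of eIF2B, the partner of eIF2, are known to cause a disease of white matter. Splicing of Xbp1, cleavage of ATF6 and translation of Atf4 are not measured by gene-level RNA values, so only transcript levels are described.

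The chaperone and amino acid groups are known to be read largely by different factors, and promoter sequences were searched for the elements of each. ATF6 and XBP1 are known to act through the ER stress response element (ERSE, searched as CCAAT and CCACG with 9 bases of any kind between them) and a shorter form, ERSE-II (ATTGG and CCACG with any 1 base between them). ATF4 is known to act through the CARE, searched here as TGATGNAA with N any base, and XBP1 also through the UPRE, searched as TGACGTGG. Each was searched on both strands of RefSeq promoter windows (build GRCm38.p6), from 250 bases before to 50 bases after an annotated transcription start. Windows existed for 35 of the 39 genes, all but Manf, Hyou1, Atf6 and Slc7a5. The stretches below hold the match nearest upstream of the start with 15 bases on each side, and capitals mark the fixed letters of the motif. They are shown because the ERSE was matched in chaperone promoters and in none of the amino acid gene promoters.
Hspa5, chr2:34772010-34772058, plus strand: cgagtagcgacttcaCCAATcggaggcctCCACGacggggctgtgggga
Hsp90b1, chr10:86705518-86705566, minus strand: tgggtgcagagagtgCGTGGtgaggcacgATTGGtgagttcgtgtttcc
Calr, chr8:84847060-84847108, minus strand: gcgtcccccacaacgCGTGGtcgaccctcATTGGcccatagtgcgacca
Canx, chr11:50325785-50325833, minus strand: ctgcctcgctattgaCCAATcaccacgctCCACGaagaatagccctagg
Pdia6, chr12:17266476-17266524, plus strand: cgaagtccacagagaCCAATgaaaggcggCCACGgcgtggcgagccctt
Dnajc3, chr14:118937812-118937860, plus strand: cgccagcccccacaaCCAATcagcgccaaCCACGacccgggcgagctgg
Creld2, chr15:88819505-88819553, plus strand: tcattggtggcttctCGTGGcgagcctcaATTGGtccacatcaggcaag
Syvn1, chr19:6046517-6046565, plus strand: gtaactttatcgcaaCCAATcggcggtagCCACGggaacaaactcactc

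Of the 12 chaperone genes with a window, 7 held a full ERSE, against 0 of 10 ATF4 amino acid targets and 0.137% of the 27025 genes with a window. Genes and motifs were both picked as known parts of this response. The motif counts therefore describe the list and are not a test of it. In Hsp90b1, Calr and Creld2 the element lies on the opposite strand to the gene, so it reads CGTGG before ATTGG. Hsp90b1 held 2 matches and the one nearer the start is shown. Syvn1, an ubiquitin ligase gene of ER-associated degradation, was the 1 further member with an ERSE. An ERSE-II was found in Dnajb11, just after its start, and in Herpud1, against 0.0444% of all genes. The UPRE was found in 0 of the 35 windows and in 0.714% of all genes. No 2 matches in these windows overlapped.

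The CARE was in 2 of 10 ATF4 amino acid targets with a window, Asns and Aars, against 4.51% of all genes with a window and 2.45% of the tested genes with one. It was in 5 of 35 members in all. The other 3 were Chac1, Trib3, whose match lies after the start, and Herpud1, which thus held an ERSE-II and a CARE. These stretches are shown because they are the amino acid and integrated stress response counterparts of the ERSE, in capitals as above.
Asns, chr6:7693210-7693247, minus strand: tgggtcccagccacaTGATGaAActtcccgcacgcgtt
Chac1, chr2:119351034-119351071, plus strand: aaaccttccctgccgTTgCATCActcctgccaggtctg
Herpud1 CARE, chr8:94386302-94386339, plus strand: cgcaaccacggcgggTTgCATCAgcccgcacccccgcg
Herpud1 ERSE-II, chr8:94386362-94386402, plus strand: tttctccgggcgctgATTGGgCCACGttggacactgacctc
A match says only that these letters are in the window, and not that a factor was bound there in these cells.

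**Figure D1:**
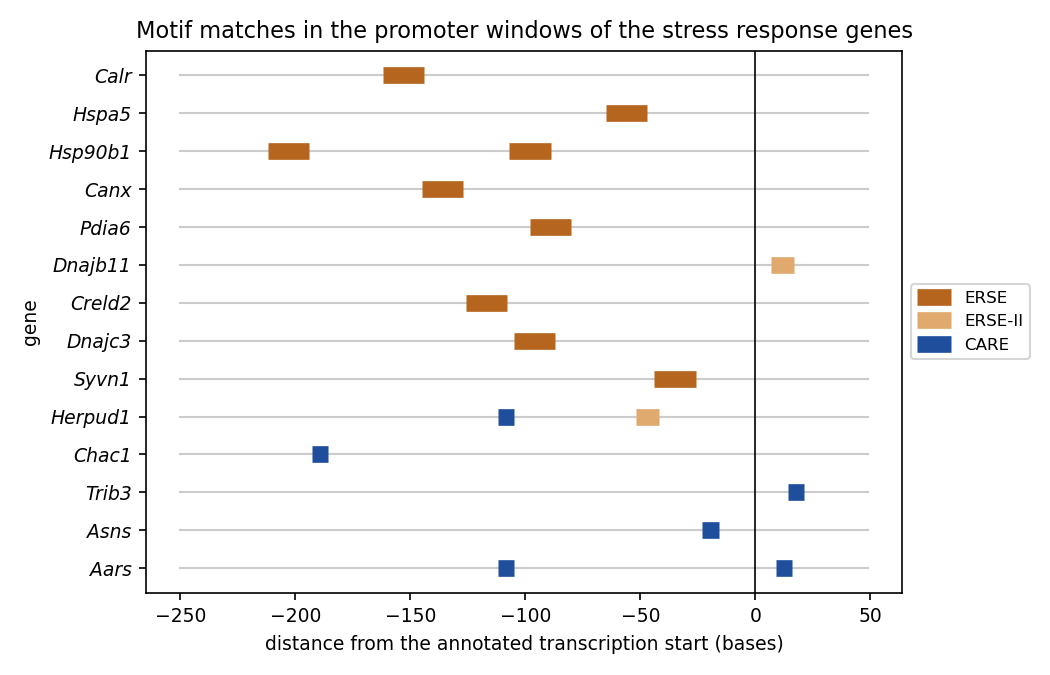
Matches of the ERSE, ERSE-II and CARE motifs in the promoter windows of the 14 members that held any, by distance in bases from the annotated transcription start (0, vertical line). Each grey line is 1 window and each coloured bar 1 match. ERSE matches sit upstream of the start in 8 genes, and CARE matches are in 5 genes without an ERSE, of which Herpud1 also holds an ERSE-II.

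The knocked-out gene checks the labels first. lncOL1 (9630013A20Rik in the files) had 28.9 and 34.0 FPKM (fragments scaled to transcript length and library depth) in control and 5.54 and 5.06 in knockout, and its log2 fold change was -2.36 (limma adjusted p = 0.000389). Library-wide correlation of log2(FPKM + 1) was 0.9818 to 0.9845 across genes, which are not independent replicates. Markers of the oligodendrocyte lineage as a whole were abundant: Olig1 was at 496 to 584 FPKM and Sox10 at 436 to 496 FPKM over the 4 libraries. The precursor markers were lower, Pdgfra at 21.82 to 25.65 FPKM and Cspg4 at 3.075 to 4.143. The myelin gene Cnp was at 1944 and 1910 FPKM in control and at 1700 and 1740 in knockout (log2 fold change -0.16). Over 9 lineage markers the controls summed to 6783 and 6667 FPKM and the knockouts to 5231 and 5480. Most of this fall was in Mbp, at 2683 and 2655 FPKM in control and at 1501 and 1520 in knockout. Mbp was the 1 lineage marker of 9 called lower (limma adjusted p = 0.00504), beside 0.783% of all genes tested. The myelin gene Mag was at 501.5 and 471.6 FPKM in control and at 353.8 and 373.8 in knockout (log2 fold change -0.42, limma adjusted p = 0.0579). Of the 9, 5 had a log2 fold change above 0 and 4 below, with a median of 0.022. Both knockout libraries lay above both controls in 3 (Olig2, Gpr17 and Cspg4) and below in 4 (Cnp, Mbp, Mag and Pdgfra). Over all genes tested, 22.6% lay wholly above and 20.7% wholly below. Astrocyte markers were present too, with 8 genes summing to 521 to 578 FPKM and Gfap at 196 to 237, 8 neuronal genes summed to 29.1 to 30.6 FPKM, and 8 fibroblast, mural and endothelial genes summed to 0.885 to 2.11 FPKM. The 12 microglia and macrophage markers summed to 13.7 and 14.4 FPKM in control and to 29.0 and 34.0 in knockout, and 0 of the 12 were at 0 in every library. Of the 7 tested, 3 were called higher by limma, beside 0.528% of all genes tested.

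None of the 39 genes passed the test between knockout and control. Of the 37 with a mean of at least 1 FPKM, which were tested, 0 were called higher and 0 lower (limma on log2(FPKM + 1), adjusted p under 0.05 over 11361 genes), where 0.528% of all genes tested were called higher and 0.783% lower. With no adjustment, 8 had a p under 0.05 on the higher side, against 7.13% of all genes, and 0 on the lower side, against 6.58%. The lowest adjusted p among members was 0.129. Calls over all genes numbered 60 higher and 89 lower, and 11 to 16 higher and 5 to 26 lower with any 1 of the 4 libraries left out, while calls among members stayed at 0. The 95% intervals of the members' log2 fold changes lay between -0.39 and 0.51, the widest bounds of any of the 37. Chac1 and Trib3 were below the filter and were not tested. Whether the samples stem from separate animals or cultures is not stated in the labels. The p-values therefore reflect only the spread between these samples, which limma draws in part from other genes and which may be technical.

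**Figure D2:**
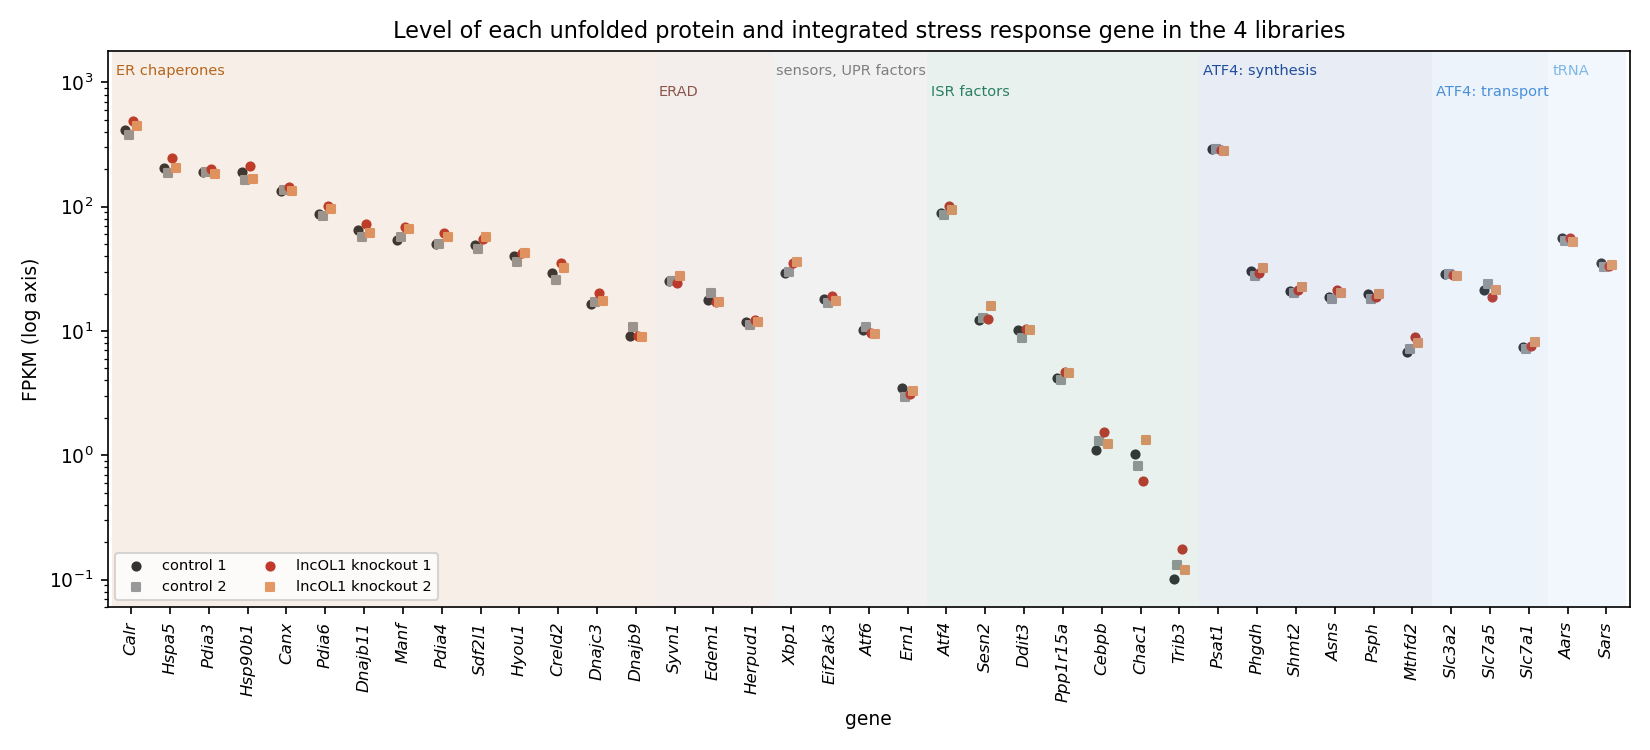
FPKM (log axis) of the 39 genes in the 4 libraries, grouped by role (background shading) and ordered by mean level within a role. Circles are replicate 1 and squares replicate 2, black or grey for control and red or orange for knockout. Calr is the most abundant member at 379 to 494 FPKM and Trib3 the least at 0.101 to 0.177.

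The chaperone genes as a group were a little higher in the knockout libraries. Of the 14, 13 had a log2 fold change above 0 and 1 (Dnajb9) below, with a median of 0.182 on the log2(FPKM + 1) scale, against a median of 0.005 over all 11361 genes tested. In 8 of the 14 both knockout libraries lay above both controls, in 1 both lay below and in 5 the groups overlapped. Over all genes tested, 22.6% lay wholly above and 20.7% wholly below. None passed the test. With no adjustment, 6 had a limma p under 0.05 on the higher side and 0 on the lower side, against 7.13% and 6.58% of all genes tested. The median depends on knockout replicate 1: without that library it was 0.111. In bulk RNA, more cells of a type and more RNA per cell cannot be told apart.

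Calr encodes calreticulin, a lectin chaperone and calcium store of the ER, and was the most abundant member. It was at 415 and 379 FPKM in control and at 494 and 444 in knockout. Both knockout libraries were above both controls, at a log2 fold change of 0.24 (adjusted p = 0.287 by limma, SE 0.086). Its membrane-bound relative Canx, calnexin, was at 134 and 136 FPKM in control and at 145 and 133 in knockout. Here the groups overlapped and the log2 fold change was 0.04 (95% interval -0.13 to 0.22).

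Hspa5 encodes BiP, the ER's Hsp70 chaperone, which also holds the stress sensors inactive. It was at 204 and 186 FPKM in control and at 246 and 203 in knockout. The groups overlapped by a small margin, because knockout replicate 2 lay just under control replicate 1. The log2 fold change was 0.20 (95% interval -0.06 to 0.46, limma adjusted p = 0.492). It was 0.062 without knockout replicate 1, 0.338 without knockout replicate 2 and 0.133 without control replicate 2. Hsp90b1, the ER's Hsp90 protein GRP94, was at 190 and 164 FPKM in control and at 211 and 166 in knockout. Its difference between replicates was larger than that between groups, and its log2 fold change of 0.08 (SE 0.129) had the widest error of the chaperones and was at -0.02 without control replicate 2 and at -0.09 without knockout replicate 1.

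The largest estimates among chaperones were in Creld2 and Manf, which encode small luminal proteins known to be released under ER stress. Creld2 was at 29.3 and 25.6 FPKM in control and at 35.6 and 32.0 in knockout, with a log2 fold change of 0.29 (adjusted p = 0.231 by limma, SE 0.092). Manf (chr9:106887415-106891938) was at 54.1 and 56.7 FPKM in control and at 68.9 and 65.8 in knockout, with a log2 fold change of 0.28 (adjusted p = 0.144 by limma, SE 0.070). Both genes had knockout libraries wholly above the controls. Exons of Manf share bases with Dcaf1 on the opposite strand and Rbm15b on the same strand in GENCODE M21, and no source used here gives the strand setting of the counting, so its reads cannot be wholly told apart from theirs.

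The protein disulfide isomerases, which form and exchange disulfide bonds, had estimates from 0.02 to 0.23. Pdia4 was at 50.5 and 50.4 FPKM in control and at 61.0 and 57.4 in knockout, and Pdia6 at 87.2 and 83.9 against 101 and 96.3. Both had knockout libraries above the controls, with log2 fold changes of 0.23 (limma adjusted p = 0.215) and 0.21 (limma adjusted p = 0.262). Pdia3, which works with calreticulin and calnexin on glycoproteins, was at 189 and 190 FPKM in control and at 201 and 184 in knockout, with a log2 fold change of 0.02 (95% interval -0.16 to 0.20). Exons of Pdia6 and Pdia3 share bases with a protein-coding gene on the opposite strand. The same limit of shared exon bases with another protein-coding gene holds for Syvn1, Ppp1r15a, Cebpb, Shmt2 and Aars.

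The co-chaperones, which steer BiP, spread from higher to lower. Sdf2l1 was at 49.6 and 45.8 FPKM in control and at 54.9 and 57.1 in knockout, with a log2 fold change of 0.23 (limma adjusted p = 0.240). Hyou1, an exchange factor for BiP, was at 40.0 and 35.7 against 42.6 and 42.3 FPKM (log2 fold change 0.16). Dnajc3, which is also an inhibitor of PERK, was at 16.4 and 17.1 against 20.1 and 17.6 FPKM (log2 fold change 0.15). These 3 had knockout libraries above the controls, as did 22.6% of all genes tested. Dnajb11, which brings BiP to unfolded protein, was at 65.3 and 56.9 against 72.5 and 60.9 FPKM, with overlapping groups (log2 fold change 0.12). Dnajb9, a BiP co-chaperone that represses IRE1, was the exception, at 9.13 and 10.7 FPKM in control and at 9.07 and 8.93 in knockout (log2 fold change -0.12, 95% interval -0.34 to 0.09). That value rested on control replicate 2, without which it was -0.0192.

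**Figure D3:**
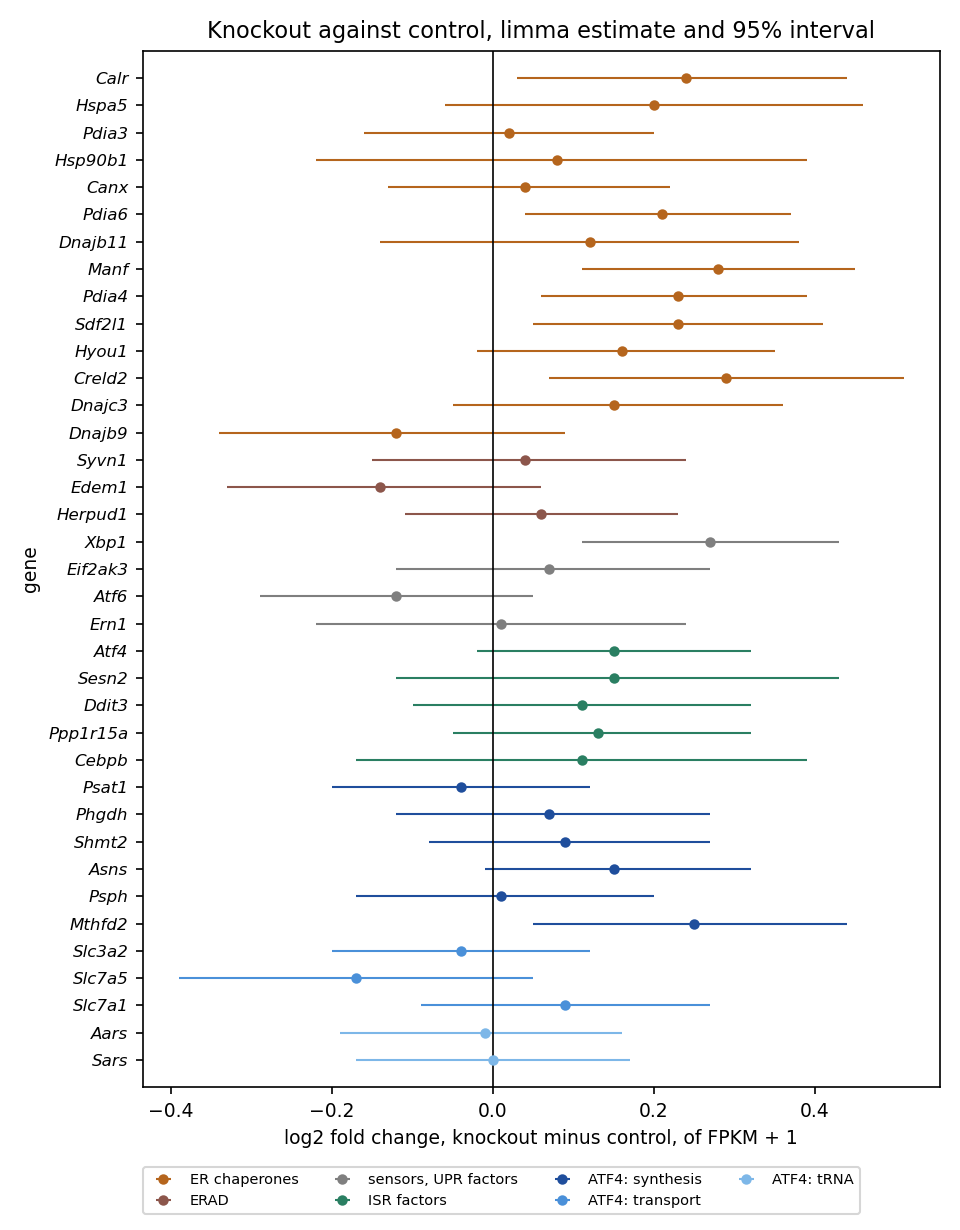
Log2 fold change of FPKM + 1 (knockout minus control) of the 37 tested genes, with 95% intervals from limma, coloured by role. Of the chaperones, 13 of 14 points lie right of 0, while the ATF4 targets lie on both sides, and no gene passed the adjusted test.

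ER-associated degradation genes, which take misfolded protein out to the proteasome, lay on both sides of 0. Herpud1, a scaffold of the degradation machinery whose window held both an ERSE-II and a CARE, was at 11.8 and 11.2 FPKM in control and at 12.2 and 11.9 in knockout (log2 fold change 0.06). Syvn1 was at 25.1 and 25.4 against 24.4 and 27.8 FPKM (log2 fold change 0.04), and without knockout replicate 2 it was at -0.05. Edem1, a lectin that marks glycoproteins for degradation, was at 17.9 and 20.3 FPKM in control and at 17.2 and 17.3 in knockout (log2 fold change -0.14, 95% interval -0.33 to 0.06). Without control replicate 2 the estimate of Edem1 was -0.0486. Only Edem1 of the 3 had both knockout libraries below the controls, and none passed the test.

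Of the sensors and transcription factors of the unfolded protein response, Xbp1 had the smallest p of all members. Xbp1 (chr11:5520641-5525993) was at 29.0 and 29.7 FPKM in control and at 35.5 and 35.9 in knockout. The groups were well apart for their small spread, with a log2 fold change of 0.27 (SE 0.066, 95% interval 0.11 to 0.43), and the adjusted p was still 0.129 (limma). Atf6 was at 10.2 and 10.8 FPKM in control and at 9.69 and 9.43 in knockout, below the controls in both libraries (log2 fold change -0.12, 95% interval -0.29 to 0.05). Eif2ak3 was at 18.0 and 16.7 against 19.3 and 17.3 FPKM (log2 fold change 0.07). Ern1 was the least abundant sensor, at 3.45 and 2.92 against 3.14 and 3.27 FPKM, with a log2 fold change of 0.01 that was at -0.004 after quantile normalization.

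Of the 7 integrated stress response factors, 5 were tested, and these had estimates from 0.11 to 0.15, none of which passed. Atf4 itself, the central transcription factor, was at 88.4 and 86.1 FPKM in control and at 101 and 93.3 in knockout, above the controls in both libraries (log2 fold change 0.15, 95% interval -0.02 to 0.32, limma adjusted p = 0.439). Ppp1r15a, the stress-induced partner of the phosphatase that reverses eIF2 phosphorylation, was at 4.20 and 4.05 against 4.67 and 4.58 FPKM (log2 fold change 0.13). Ddit3, which encodes the death-linked factor CHOP, was at 10.1 and 8.76 against 10.4 and 10.1 FPKM (log2 fold change 0.11), with overlapping groups. Exons of Ddit3 share bases with Mars on the opposite strand.

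The remaining members of that group were low or variable. Sesn2, a stress-induced inhibitor of mTORC1 signalling, was at 12.4 and 12.8 FPKM in control and at 12.5 and 16.0 in knockout, so its log2 fold change of 0.15 came from knockout replicate 2 and was at -0.02 without it. Cebpb, a partner of CHOP and ATF4, was at 1.10 and 1.31 against 1.53 and 1.22 FPKM (log2 fold change 0.11). The authors' deposited table lists Cebpb lower, at 0.396 and 0.414 FPKM, so its level is uncertain. Chac1, a glutathione-degrading enzyme and a sharp marker of ATF4 activity, was at 1.03 and 0.819 against 0.619 and 1.34 FPKM. Trib3, a pseudokinase that curbs ATF4, was at 0.101 and 0.131 against 0.177 and 0.118 FPKM. Both overlapped between groups and were low in every library.

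The ATF4 amino acid targets, set against the chaperones, were centred near all genes tested. Of the 11, 6 had a log2 fold change above 0 and 5 below, with a median of 0.013, against 0.182 for the chaperones and 0.005 for all genes tested. In 4 both knockout libraries lay above the controls, in 3 both lay below and in 4 the groups overlapped, beside 22.6% and 20.7% of all genes. The median is close enough to 0 that single libraries move it: it was 0.075 without control replicate 1, -0.030 without control replicate 2 and 0.054 without knockout replicate 1. The chaperone median minus the ATF4 target median was 0.169 with all libraries and 0.057 without knockout replicate 1.

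The contrast was also taken as means per library. The mean log2(FPKM + 1) of the chaperones was 6.14 and 6.08 in control against 6.33 and 6.20 in knockout. The groups did not overlap, but the gap of 0.059 between the higher control and the lower knockout library was about as large as the 0.058 between the controls and smaller than the 0.128 between the knockouts. For the ATF4 targets the means were 4.79 and 4.76 in control and 4.80 and 4.83 in knockout, a mean difference of 0.038 against 0.152 for the chaperones. These groups did not overlap either, by a gap of 0.01, with the controls 0.034 and the knockouts 0.021 apart. Summed over the 14 chaperones, FPKM was 1533 and 1438 in control and 1762 and 1570 in knockout. Summed over the 11 ATF4 targets, it was 535 and 529 in control and 528 and 528 in knockout. Of these sums Psat1 alone made up 290 and 293 in control and 285 and 282 in knockout. Genes of both lists were chosen with results of these data known, so these differences between lists are given with no test.

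**Figure D4:**
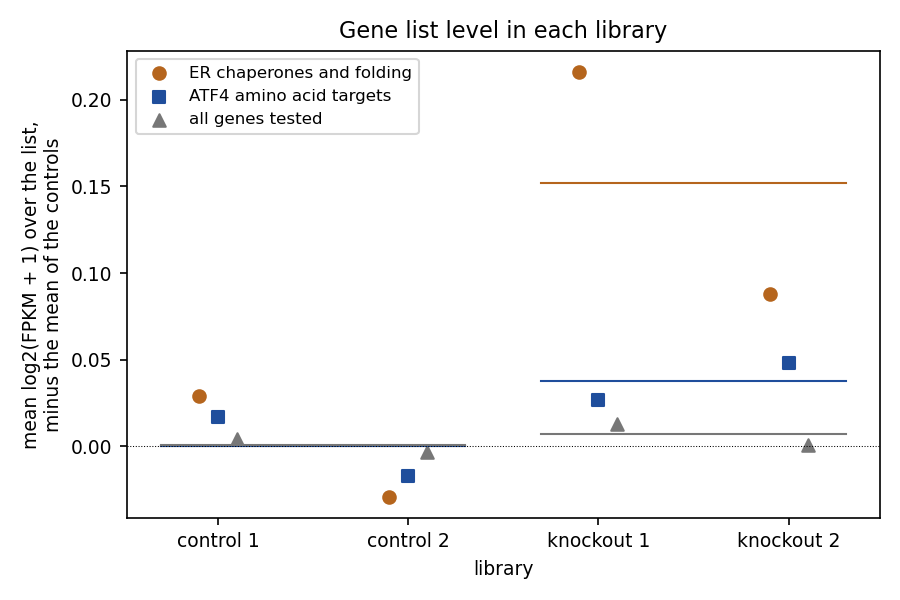
Mean log2(FPKM + 1) over each gene list in each library, minus the mean of the 2 control libraries, for the chaperones, the ATF4 targets and all genes tested. Points are libraries and horizontal lines group means. The chaperones stand 0.216 and 0.088 above the control mean in knockout replicates 1 and 2, and the ATF4 targets 0.027 and 0.048.

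Chaperone levels also moved with the libraries within a group. In 8 of the 14 chaperones replicate 1 was above replicate 2 in both control and knockout, against 28.7% of all genes tested and 2 of the 11 ATF4 targets. Paired by number, the chaperone median difference was 0.184 for replicate 1 and 0.157 for replicate 2. Relative depth, estimated from the commonest ratio of 561 genes of very low FPKM, was 1.19 in control replicate 2, 0.94 in knockout replicate 1 and 1.15 in knockout replicate 2, with control replicate 1 set to 1. The part of depth and of the microglia markers given above in the chaperone values was not tested.

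Serine, folate and asparagine synthesis genes included the 1 of 11 ATF4 targets with an unadjusted limma p under 0.05. It was on the higher side, where 7.13% of all genes tested had such a p. Mthfd2 (chr6:83305704-83317604), a mitochondrial folate enzyme, was at 6.79 and 7.12 FPKM in control and at 8.93 and 7.99 in knockout (log2 fold change 0.25, SE 0.081, limma adjusted p = 0.247). Asns, asparagine synthetase and the classical amino acid response gene, was at 18.7 and 18.2 against 21.2 and 20.1 FPKM (log2 fold change 0.15, 95% interval -0.01 to 0.32). Shmt2, which passes the serine carbon to mitochondrial folate, was at 21.1 and 20.1 against 21.4 and 22.7 FPKM (log2 fold change 0.09). In these 3 of the 6 genes of this group the knockout libraries were above the controls, in 1 (Psat1) below and in 2 overlapping. Over all genes tested 22.6% lay above and 20.7% below.

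The 3 enzymes that make serine had estimates near 0. Psat1, phosphoserine aminotransferase, was the second most abundant member, at 290 and 293 FPKM in control and at 285 and 282 in knockout (log2 fold change -0.04, 95% interval -0.20 to 0.12). Its level was well above those of the enzymes before and after it in the pathway. Phgdh, the first enzyme, was at 30.2 and 27.7 against 29.1 and 31.9 FPKM (log2 fold change 0.07), and Psph, the last, at 19.9 and 18.1 against 18.6 and 19.7 FPKM (log2 fold change 0.01, and -0.05 and -0.03 without control and knockout replicate 2). The intervals of these 3 genes lay between -0.20 and 0.27.

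The amino acid transporters had estimates from -0.17 to 0.09. Slc7a5, the LAT1 carrier of large neutral amino acids (chr8:121881146-121907686), was at 21.5 and 24.0 FPKM in control and at 18.8 and 21.5 in knockout. The groups only just separated, and the log2 fold change was -0.17 (95% interval -0.39 to 0.05, limma adjusted p = 0.505). It was -0.078 without knockout replicate 1, -0.258 without knockout replicate 2 and -0.094 without control replicate 2. Slc3a2, the heavy chain that Slc7a5 needs, was at 28.7 and 29.0 against 28.3 and 27.8 FPKM (log2 fold change -0.04), and Slc7a1, a carrier of cationic amino acids, at 7.48 and 7.13 against 7.55 and 8.10 FPKM (log2 fold change 0.09). The aminoacyl-tRNA synthetase genes, which charge tRNA with alanine and serine, had estimates near 0. Aars was at 56.1 and 52.6 against 55.6 and 52.1 FPKM, and Sars at 35.1 and 32.5 against 33.5 and 34.0. Their log2 fold changes were -0.01 and -0.0005, and 0.0008 and 0.0045 after quantile normalization.

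**Figure D5:**
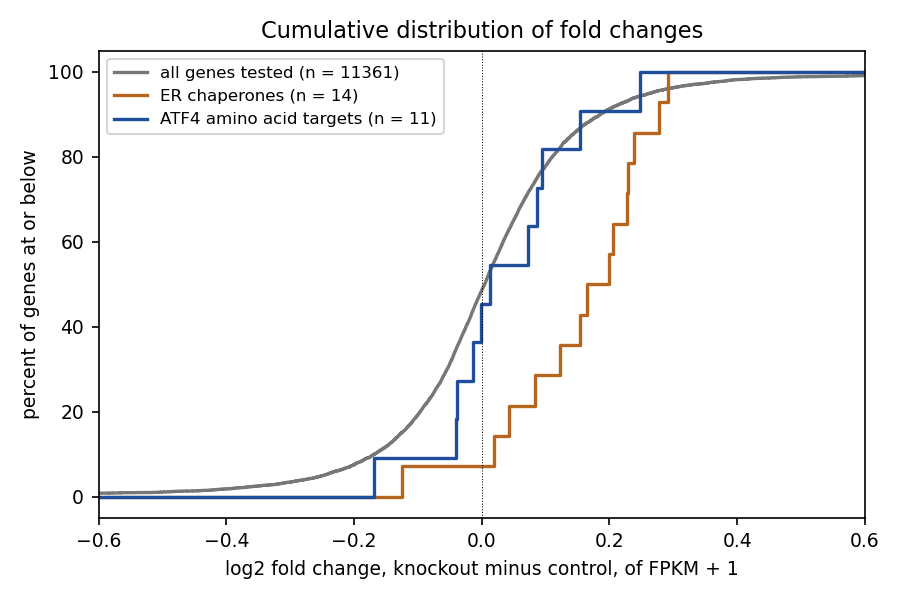
Cumulative percent of genes at or below each log2 fold change of FPKM + 1 (knockout minus control), for all 11361 genes tested (grey), the 14 chaperones (brown) and the 11 ATF4 amino acid targets (blue); the axis is cut at -0.6 and 0.6. The chaperone curve lies to the right, with a median of 0.182, and the ATF4 target curve near that of all genes.

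The authors' own comparison called a few members where the test above did not. In the authors' deposited table, which holds 1 pooled value per group, 3 chaperones were significant and higher and 1 ATF4 target significant and lower. Among 11154 genes tested both here and there, 1.68% were significant and higher and 4.41% significant and lower. The authors' deposited table gives Hspa5 a log2 fold change of 0.22 (q = 0.0258), Calr 0.21 (q = 0.0267) and Manf 0.22 (q = 0.0352), and Slc7a5 -0.28 (q = 0.0186). Xbp1 stands in the authors' deposited table at 0.21 (q = 0.27) and Creld2 at 0.27 (q = 0.0942), neither of them significant. The median log2 fold change over the list in the authors' deposited table was 0.16 for the 14 chaperones and -0.05 for the 11 ATF4 targets. The sign of this last median is opposite to that of the per-sample fit, as is the sign for Shmt2, Psph, Syvn1 and Ern1, at -0.01, -0.05, -0.08 and -0.06 in the authors' deposited table. The calls differed for Hspa5, Calr, Manf and Slc7a5, while Xbp1 and Creld2 were called in neither source. Levels differed too, and not for Cebpb alone. The pooled FPKM in control and knockout was 491.7 and 567.4 for Calr, 230.2 and 255.4 for Hsp90b1, and 41.7 and 39.93 for Aars. These lie outside the per-sample values of the same groups.

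Other genes of the pathway were compared from lists beside the members. Of 36 tested genes of ER folding, translocation and degradation outside the members, 0 were called. With no adjustment, 2 had a limma p under 0.05 on the higher side and 0 on the lower side, against 7.13% and 6.58% of all genes tested. The median log2 fold change of the 36 was 0.017. The abundant ones were Vcp, the ATPase that extracts ER proteins, at 291 to 314 FPKM (log2 fold change -0.0045), the prolyl isomerase Ppib at 153 to 189 (0.11) and the disulfide isomerase P4hb at 146 to 162 (0.06). Of 12 genes of eIF2 kinases, eIF2 and eIF2B, 0 were called and 0 had an unadjusted p under 0.05, with a median of -0.004. Eif2s3x and Eif2s2, subunits of eIF2, had log2 fold changes of -0.06 and -0.10, and Ppp1r15b, the constitutive partner of the eIF2 phosphatase, of -0.07.

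Among 28 tested further genes of the ATF4 and amino acid response, the median log2 fold change was 0.009. With no adjustment, 2 had a limma p under 0.05 on the higher side and 1 on the lower side, against 7.13% and 6.58% of all genes tested. After adjustment 1 was called higher and 0 lower, beside 0.528% and 0.783% of all genes tested. The one was Slc7a11, the cystine importer, which exchanges cystine for glutamate and is a target of ATF4 and of the antioxidant factor NRF2. It was at 2.04 and 2.22 FPKM in control and at 5.24 and 4.95 in knockout, so every knockout library was well above every control. Its log2 fold change was 0.96 (SE 0.085, limma adjusted p = 0.00581), and the adjusted p was 0.0605 without control replicate 1, 0.0859 and 0.101 without knockout replicates 1 and 2, and 0.0629 with no filter on low values. The call held without control replicate 2 (adjusted p = 0.0478 by limma), and with any 1 library left out the log2 fold change was 0.923 to 1.0. The authors' deposited table gives it a log2 fold change of 1.24, with no pseudocount of 1 added. With a pseudocount of 0.1 the value here was 1.22. The 7 tested microglia and macrophage markers all had a log2 fold change above 0, with a median of 0.792. The part of such cells in the Slc7a11 value was not tested. Of 8 synthetase genes not counted as ATF4 targets, 0 were called and 0 had an unadjusted p under 0.05, with a median of -0.005. Dars was at 56.8 and 56.1 against 53.3 and 47.4 FPKM (log2 fold change -0.16), Kars had a log2 fold change of 0.05 and Farsa of 0.09.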

How the data were processed

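RNA of 2 control and 2 lncOL1 knockout samples was compared. Build mm10 and the tools TopHat, Cuffdiff, CASAVA and Cufflinks are named in the submitters' processing notes. Not given in the sources used here are versions, options, annotation and strand setting. FPKM per gene and sample were computed and deposited by the authors, per the file headers. A further table deposited by the authors holds a pooled FPKM per group, a log2 fold change and p-values and q-values, per the file headers. Read counts behind the FPKM are not given, so only relative depth was estimated.

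Rows sharing a symbol were summed (258 symbols), and 9 symbols not marked OK were left out. The 11361 genes whose mean reached 1 FPKM were fitted as log2(FPKM + 1), a pseudocount of 1, with limma 3.58.1 in R 4.3.3 (lmFit, eBayes with an expression trend, no covariate), with Benjamini-Hochberg adjustment over all of them. Fold changes on this scale understate those of low genes. The fit left 2 residual and 4.6 prior degrees of freedom. Alternatives were another pseudocount, no filter, quantile and TPM scaling, no trend, a replicate block and each library left out. Members, lists and motifs were chosen with earlier results of these data known. All members are named, and of other lists the called genes or up to 3 of the highest mean FPKM. Positions are those of the files, counted from 1, and exon overlaps (14 of 39 members share exon bases with another gene) are from GENCODE M21 on the same build. Some markers and some sequences of motif matches are not reported here.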

Additional observations from a re-analysis of the deposited data

How the results depend on the processing

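No member was called higher or lower under any of the 10 alternatives, and the lowest adjusted p of a member in them was 0.0861, with a replicate block. Nothing in the labels says that replicate numbers pair the samples. The replicate 1 minus 2 differences of control and knockout correlated at -0.052 over all genes tested, 0.249 over the 37 tested members, 0.436 over the chaperones and -0.014 over the ATF4 targets, and genes are not independent replicates. With the block 158 genes were called higher and 183 lower, and with no filter on low values 1 and 3. Leaving out 1 library at a time, 11 to 16 genes were called higher and 5 to 26 lower, the chaperone median was 0.111 to 0.245, the ATF4 target median -0.030 to 0.075 and their difference 0.057 to 0.237. Under quantile normalization the log2 fold changes of Ern1, Aars and Sars changed sign (-0.0039, 0.000818 and 0.0045). With a library left out, signs changed for Hsp90b1 (-0.0883 to 0.256), Canx (-0.0154 to 0.0996), Pdia3 (-0.0422 to 0.0808), Dnajb11 (-0.00109 to 0.245), Syvn1 (-0.0465 to 0.136), Ern1 (-0.0819 to 0.101), Sesn2 (-0.0155 to 0.318), Psph (-0.0485 to 0.0747), Aars (-0.0597 to 0.0315) and Sars (-0.0542 to 0.0533). With the sign kept, the value moved by over 1.5 times for Hspa5, Dnajb9, Edem1 and Slc7a5, whose values stand beside them above, and for Dnajc3 (0.062 to 0.246), Hyou1 (0.0848 to 0.244), Herpud1 (0.0276 to 0.0911), Eif2ak3 (0.000504 to 0.147), Atf4 (0.0961 to 0.204), Ddit3 (0.0159 to 0.206), Cebpb (0.0148 to 0.199), Phgdh (0.00828 to 0.136), Shmt2 (0.055 to 0.133) and Slc7a1 (0.042 to 0.132). All tested members outside those named as changing sign kept it in every alternative run. Without read counts, the error of low genes such as Trib3 and Chac1 cannot be set apart from counting noise.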

Other observations

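Chaperones of other compartments were not called. Of 9 tested cytosolic heat shock genes 0 were called by limma and 0 had an unadjusted p under 0.05, with a median log2 fold change of 0.012. Hspa8, the constitutive Hsp70, was at 855 and 795 FPKM in control and at 929 and 804 in knockout (0.07), and the Hsp90 genes Hsp90ab1 and Hsp90aa1 had log2 fold changes of 0.01 and -0.04. Of 8 mitochondrial chaperone and protease genes 0 were called, with a median of 0.032. With no adjustment 1 of the 8 had a limma p under 0.05, on the higher side, against 7.13% of all genes tested. Hspe1 had a log2 fold change of 0.16, Hspd1 of 0.02 and Hspa9 of 0.04.

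A full ERSE stood in the promoter window of 14 tested genes, of which 8 are members. The other 6, named after their values were seen, are Adcy3, Alg12, Hnrnpa3, Pan2, Spats2l and Zfp57, with log2 fold changes of 0.29, 0.03, -0.02, 0.16, -0.08 and 0.17. Their median was 0.094 with 4 of 6 above 0. That of the 8 members was 0.177 with 8 of 8 above 0, and 0 of the 14 genes were called by limma. Among chaperones with a window, the 7 with an ERSE had a median of 0.200 and the 5 without had one of 0.122. These groups were set by sequence after the fold changes were known, and the difference was not tested.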
